A study of Mus musculus with 14 samples.

Results

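The comparison is between aortic valves of 4 mice given AngII together with LY272015, a blocker of the serotonin receptor HTR2B, and 4 mice given AngII alone. All 8 libraries labelled with these 2 groups were used, of 14 libraries in the series, and 19145 of the 56941 genes measured were tested, those whose count averaged 10 or more across the 14 libraries. All mice were C57BL/6 wild type by the labels, and C57BL/6J males 8 weeks old by the study's methods, and were fed Breslow Western Diet, a cholesterol-rich diet. AngII mice received Angiotensin II by osmotic pump at 1000 ng/kg/min for 28 days, and AngII+LY mice received the same infusion plus LY272015 at 3 mg/kg by intraperitoneal injection. The pumps came out 48 h before tissue collection in both groups by the design text, while the study's methods describe removal in a subset. The injection interval differs between the sources, and the treatment label of 3 AngII+LY libraries gives a compound number that differs from LY272015 in its last digit, so their group was taken from the titles. The non-infused mice, 4 Ctrl and 2 with LY272015 alone (LY), on the same diet, entered the fit but not the contrast. RNA came from dissected leaflets, each library is named below as 1 mouse (AngII 1 to 4, AngII+LY 1 to 4) although the labels do not say whether valves were pooled, and muscle attached to the leaflets is not described as removed.

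HTR2B is a serotonin receptor coupled to the Gq proteins, which activate phospholipase C beta. Serotonin is made by the tryptophan hydroxylase Tph1 and the decarboxylase Ddc, packed into vesicles by Slc18a2, taken up from outside the cell by the transporter Slc6a4 and broken down by Maoa and Maob. In heart valves, interstitial cells lay down collagen, proteoglycans and elastic fibers, an endothelial layer covers them, and the leaflet hinge joins the myocardium, whose muscle cells carry sarcomeres and many mitochondria. Angiotensin II raises blood pressure and is known to drive fibrosis in the heart and its valves.

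Library totals in the 8 mice ran from 20990655 counts in AngII 4 to 73128220 in AngII 2. Transcripts of the mitochondrial genome took 11, 9.83, 24.7 and 25.5% of the counts in AngII 1 to 4 and 20.2, 10.1, 11.8 and 12.7% in AngII+LY 1 to 4, and the groups overlapped. Sarcomere genes, a list of 26 that marks muscle, took 2.12, 1.12, 2.19 and 1.22% in AngII and 3.44, 2.69, 4.48 and 6.24% in AngII+LY mice, so that the groups did not overlap. Ctrl mice ranged over 1.21 to 4.68%. Valve interstitial markers, 20 genes, took 1.83, 2.16, 1.38 and 1.4% in AngII and 0.958, 1.08, 0.964 and 0.622% in AngII+LY mice, which again did not overlap, in the opposite direction. In whole leaflets, fewer cells of a type and less RNA per cell cannot be told apart.

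The libraries also differed in transcript base composition. The difference between genes in the highest and the lowest of 5 equal groups by GC content (the percentage of G and C in a gene's transcripts), on a log2 scale relative to the mean of the 14 libraries, was -0.125, -0.371, -0.97 and -1.68 in AngII 1 to 4 and -0.293, 0.424, 0.369 and 0.284 in AngII+LY 1 to 4. AngII 3 and AngII 4 lay lowest, these being the same 2 AngII mice with the highest mitochondrial share, and AngII 1 overlapped AngII+LY 1. The median log2 fold change of AngII+LY against AngII ran from -0.56 in the lowest GC group to 0.37 in the highest, and from 0.16 for the shortest of 5 groups by exon length to -0.22 for the longest. What this difference contributes to any one gene was not tested. Below, a log2 fold change after correcting each library for GC content, or with a muscle score (the sarcomere score, the mean log2 level of the sarcomere genes) as a covariate, is given beside a gene's value where it differs from that value by over 1.5 times or in sign. For many lists, the median in these fits is followed by the numbers of genes higher and lower at an unadjusted p under 0.05.

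**Figure D1:**
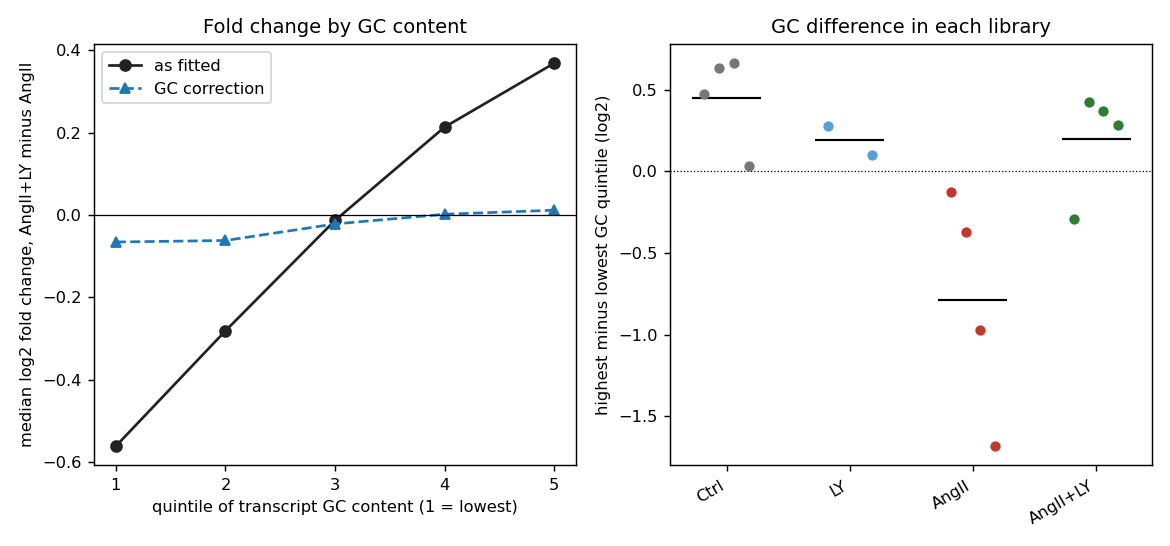
Left, median log2 fold change of AngII+LY against AngII (y axis) in 5 equal groups of genes ordered by transcript GC content (x axis), as fitted and after each library was corrected for GC content. Right, the log2 difference between the highest and lowest GC groups in each library (points) with group means (bars); AngII 4 lies lowest at -1.68 and 3 of 4 AngII+LY mice lie above 0.

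A gene was called if its adjusted p (edgeR's quasi-likelihood test, Benjamini-Hochberg) was below 0.05 and its log2 fold change exceeded 0.5 in size. With LY272015 added, 79 genes were called higher (0.413% of those tested) and 97 lower (0.507%). These calls lie close to the threshold, with adjusted p from 0.0267 to just under 0.05, and the older quasi-dispersion estimate, which is the default of the installed edgeR, called 0 genes, its smallest adjusted p being 0.0568. This choice of estimate therefore decides whether any gene is called, and it was made with earlier results of these data known. Single libraries decide it too: without AngII 2, AngII 3, AngII+LY 3 or AngII+LY 4 no gene was called, without AngII 4 there were 0 higher and 3 lower and without AngII+LY 1 0 and 5, whereas without AngII 1 there were 458 and 603 and without AngII+LY 2 151 and 75. Before adjustment, p was under 0.05 in 2153 higher (11.2%) and 2600 lower genes (13.6%), against 1937 and 2378 with the older estimate. DESeq2, the method of the study, called 1022 higher (5.34%) and 1060 lower (5.54%) at the same thresholds, and 162 of the 176 edgeR calls were among them. In 1043 genes (5.45%) all AngII+LY values were above all AngII values and in 1083 (5.66%) below, and 175 of the 176 called genes were among these. Of all genes tested, 48.8% were higher in any amount, and the median log2 fold change was -0.02. Below, a gene is said to rise or fall in AngII+LY only if edgeR called it, and the share of all genes beside each count is the one given here.

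The called genes differed in build. Those called higher had a median exon length of 3010 bases and a median GC content of 54.1%, those called lower 7694 bases and 43.1%, and all genes tested 5175 bases and 49.7%. In the lowest of the 5 GC groups lay 72 of the 97 genes called lower and 1 of the 79 called higher. After each library was corrected for GC content no gene passed the adjusted threshold (1683 higher and 1691 lower at an unadjusted p under 0.05), while 175 of the 176 kept their direction at an unadjusted p under 0.05. These 176 were picked by p in the same libraries.

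Muscle genes were higher with LY272015. All 26 sarcomere genes lay higher in AngII+LY than in AngII, with a median log2 fold change of 1.36, 18 of 26 at an unadjusted p under 0.05 against 11.2% of all genes. None of the 26 was called by edgeR, 12 were called by DESeq2 (5.34% of all genes higher), and in 9 the groups did not overlap (5.45%). Tnnt2, the troponin that anchors the complex to tropomyosin, had 161900, 75520, 192120 and 94269 normalized counts in AngII 1 to 4 and 301540, 206120, 403360 and 645580 in AngII+LY 1 to 4 (log2 fold change 1.57, SE 0.47, adjusted p = 0.0755, 0.46 with the sarcomere score in the fit). All 4 AngII+LY values were above the AngII range, the lowest by a small margin. Tcap, which ties titin to the Z-disc, had 75456, 41090, 93799 and 46579 against 165270, 104990, 205760 and 308150 (log2 fold change 1.61, SE 0.41, adjusted p = 0.0558, 0.66 with the sarcomere score in the fit), again without overlap. Myl2, the ventricular regulatory light chain, had 138170, 67090, 176070 and 130040 against 285050, 197160, 303350 and 255110 (log2 fold change 1.03, SE 0.32, adjusted p = 0.0861, 0.60 with the sarcomere score in the fit).

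Calcium-handling genes were less uniform: 21 of 24 were higher, with a median of 0.97, 10 higher and 1 lower at an unadjusted p under 0.05, and none called by edgeR (3 by DESeq2). Atp2a2, the calcium pump of the sarcoplasmic reticulum, had 60486, 50780, 125630 and 105270 normalized counts in AngII and 129210, 68033, 107670 and 192280 in AngII+LY mice (log2 fold change 0.54, SE 0.50, adjusted p = 0.529, -0.65 with the sarcomere score in the fit), with wide overlap. S100a1, a calcium sensor of cardiac muscle, had 36931, 22069, 44230 and 34663 against 68475, 45502, 69942 and 98335 (log2 fold change 1.03, SE 0.28, adjusted p = 0.0633, 0.42 with the sarcomere score in the fit), and its groups did not overlap. All 10 genes of muscle energy supply were higher at an unadjusted p under 0.05, with a median of 1.28 (0.40 with the sarcomere score in the fit), 0 called by edgeR and 8 by DESeq2. Among them Mb, the oxygen store myoglobin, had 97021, 41530, 124710 and 40712 against 198430, 108430, 262480 and 265990 (log2 fold change 1.46, SE 0.45, adjusted p = 0.0833, 0.56 with the sarcomere score in the fit), AngII+LY 2 lying below AngII 3.

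Nppb (ENSMUSG00000029019, chr4:148069859-148071662, GRCm39), the natriuretic peptide BNP that cardiac muscle secretes under load, rose. Its normalized counts were 3167, 1763, 3332 and 1717 in AngII and 10253, 4686, 8008 and 30088 in AngII+LY mice, against 868 to 2526 in Ctrl (log2 fold change 2.40, SE 0.49, adjusted p = 0.0497, 0.996 with the sarcomere score in the fit). No AngII+LY mouse overlapped an AngII mouse, and AngII+LY 4 was far above the other 3. Myh7, the slow myosin heavy chain, had 704, 717, 2186 and 367 against 4829, 1106, 1419.6 and 22421 (log2 fold change 2.88, SE 0.90, adjusted p = 0.0841, 0.08 with the sarcomere score in the fit), its mean set by AngII+LY 4 and its groups overlapping.

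Atrial genes stood out in 1 library. Myl7, the atrial light chain, had 5942, 15605, 1842 and 2032 normalized counts in AngII mice and 5628, 3802, 3760.5 and 155870 in AngII+LY mice (log2 fold change 2.72, SE 1.44, adjusted p = 0.253, -2.33 with the sarcomere score in the fit). Without AngII+LY 4 its log2 fold change was -0.54. In Ctrl mice it ranged over 6355 to 208650, so that 1 Ctrl mouse was as high. Nppa, the atrial natriuretic peptide, had 2869, 4904, 3814 and 1641 against 5853, 2534, 4053 and 141580 (log2 fold change 3.53, SE 1.23, adjusted p = 0.106, -0.91 with the sarcomere score in the fit). The list of 6 atrial genes took 0.0091 to 0.0714% of counts in AngII mice, and 0.0281, 0.0183, 0.0185 and 0.854% in AngII+LY 1 to 4. The part of this list in other results of AngII+LY 4 was not tested.

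To separate muscle from the rest, each gene was classed by its correlation with the sarcomere score (the mean log2 level of the sarcomere genes) over the 6 non-infused libraries, which the contrast does not use. With a Pearson correlation of at least 0.8, 1381 genes (7.21% of those tested) followed the score, and 895 opposed it at -0.8 or below, while 8 genes could not be classed. A correlation over 6 libraries is a rough description and it includes whatever else differed between those mice. Of the genes that followed, 86.8% were higher in AngII+LY, with a median log2 fold change of 0.66, and 40.1% were higher at an unadjusted p under 0.05. Of the genes in neither class, 16861, 46.8% were higher, 9.4% were higher at an unadjusted p under 0.05 and 14.2% lower. This class still holds muscle genes: 7 of the sarcomere list, 10 of calcium handling and all 6 of the ventricular list, Nppb among them. Of the opposing genes 28.3% were higher, and 22.5% were lower at an unadjusted p under 0.05. The 79 genes called higher comprised 29 that followed the score and 50 in neither class, and the 97 called lower comprised 1, 89 and 7 genes that followed, did neither or opposed.

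**Figure D2:**
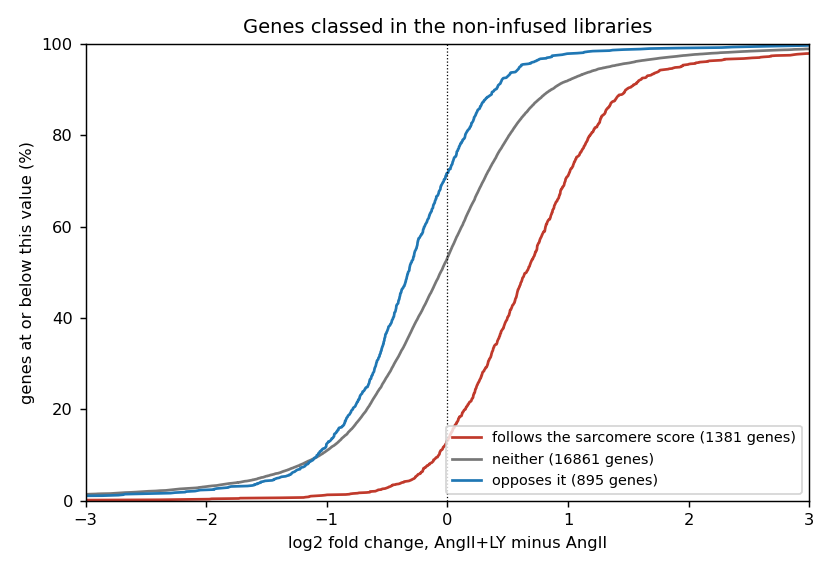
Cumulative share of genes (y axis, percent) by log2 fold change of AngII+LY against AngII (x axis) for genes that followed the sarcomere score over the 6 non-infused libraries, opposed it or did neither. The curve of the 1381 following genes lies to the right, with 86.8% of them above 0.

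A second view put the sarcomere score of each library into the fit. No gene then passed the adjusted threshold, and 1201 genes were higher (6.27%) and 1399 lower (7.31%) at an unadjusted p under 0.05. Sarcomere genes, from which the score is made, had a median of 0.12, and the calcium-handling list -0.43. Each of the 176 called genes kept its direction at an unadjusted p under 0.05 in this fit, but they were picked by p in these same libraries. The score itself overlapped between the groups, at 13.8, 13.1, 14.3 and 13.5 in AngII and 14.8, 14, 14.8 and 15.9 in AngII+LY mice.

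Short promoter stretches show what the muscle and the mitochondrial genes carry at their starts. They are the 150 bases before the annotated start in RefSeq (GRCm38.p6), with a motif match in capitals. Actc1 and Myl3, sarcomere genes, hold a CArG box, the site of serum response factor. The next 4 genes rose and hold the NRF1 motif, which reads as in the capitals of Ndufa11 with any base allowed at position 6 of the 10, for NRF1, a factor of mitochondrial genes: Ndufa11 of complex I, Etfb of fatty acid oxidation, the lipid peroxidase Gpx4 and Mrpl12 of the mitochondrial ribosome, where the match is on the opposite strand. Both motifs were searched on both strands over 250 bases before to 50 after each start. No printed match overlaps a match of the other motif, and a gene with several starts counted if any held it. The genes shown were picked because they hold the motif printed.
Actc1 (chr2:114052876-114053025, minus strand): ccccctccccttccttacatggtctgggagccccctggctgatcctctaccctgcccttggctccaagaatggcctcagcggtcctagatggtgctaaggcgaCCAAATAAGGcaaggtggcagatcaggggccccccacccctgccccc
Myl3 (chr9:110763528-110763677, plus strand): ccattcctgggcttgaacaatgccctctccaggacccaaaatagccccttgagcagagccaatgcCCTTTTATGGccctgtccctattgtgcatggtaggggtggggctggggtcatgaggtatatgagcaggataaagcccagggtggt
Ndufa11 (chr17:56717612-56717761, plus strand): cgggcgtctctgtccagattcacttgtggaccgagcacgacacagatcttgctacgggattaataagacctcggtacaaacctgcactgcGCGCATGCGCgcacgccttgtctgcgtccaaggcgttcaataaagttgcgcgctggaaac
Etfb (chr7:43443922-43444071, plus strand): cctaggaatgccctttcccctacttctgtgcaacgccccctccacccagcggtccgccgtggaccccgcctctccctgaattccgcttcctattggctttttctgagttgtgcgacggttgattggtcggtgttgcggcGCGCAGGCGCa
Gpx4 (chr10:80053415-80053564, plus strand): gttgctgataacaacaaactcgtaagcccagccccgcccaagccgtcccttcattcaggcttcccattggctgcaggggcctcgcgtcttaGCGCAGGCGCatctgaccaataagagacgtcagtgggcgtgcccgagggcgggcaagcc
Mrpl12 (chr11:120484487-120484636, plus strand): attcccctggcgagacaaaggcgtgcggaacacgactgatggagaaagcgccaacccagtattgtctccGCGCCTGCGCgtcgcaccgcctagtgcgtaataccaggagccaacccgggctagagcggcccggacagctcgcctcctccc

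The CArG box stood in 6 of 22 (27.3%) sarcomere genes with a promoter sequence, against 1.81% of all 27025 such genes and 1.64% of those tested. The NRF1 motif stood in 11 of 52 (21.2%) genes of the respiratory complexes and 13 of 69 (18.8%) of the mitochondrial ribosome, against 9.64% of genes tested and 5.19% of all. Of the genes called higher 12 of 64 (18.8%) held it, and of those called lower 5 of 75 (6.67%). ETS, MEF2 and TATA motifs were searched in the same way. MEF2 stood in 4 of 22 (18.2%) sarcomere genes, against 2.45% of genes tested, and TATA in 4 of 22 (18.2%), against 9.85%. ETS stood in 12 of 69 (17.4%) genes of the mitochondrial and 12 of 64 (18.8%) of the cytosolic ribosome, against 7.79% of genes tested. In the respiratory complexes ETS stood in 4 of 52 (7.69%). A match describes letters, not binding, and the NRF1 motif is itself rich in G and C.

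Genes of the respiratory complexes encoded in the nucleus were higher almost throughout. Of 80 tested genes of complexes I to V, 77 were higher, with a median log2 fold change of 0.948, 54 were higher at an unadjusted p under 0.05 and 0 lower, and 13 rose. By complex, 36 of 37 genes of complex I (NADH dehydrogenase) were higher, 8 of 9 of complex III, 13 of 13 of complex IV (cytochrome c oxidase) and 16 of 17 of complex V (ATP synthase). Over the non-infused libraries 66 of the 80 genes followed the sarcomere score, and the 14 that did not had a median of 0.241. The 17 sarcomere and calcium-handling genes that did not follow it had a median of 1.108, so this class does not mark genes outside muscle. With the score in the fit the median of the 80 was 0.386, with 35 higher and 2 lower at an unadjusted p under 0.05.

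Ndufb7, a subunit of complex I, rose: its normalized counts were 23551, 12746, 19455 and 12815 in AngII and 40017, 34656, 50852 and 44021 in AngII+LY mice (log2 fold change 1.31, SE 0.24, adjusted p = 0.0447). All AngII+LY values were above those of AngII, and above the Ctrl range of 18964 to 32956. Ndufa11, whose promoter is shown above, had 14423, 8456, 14493 and 7825 against 26901, 20802, 32158 and 39397 (log2 fold change 1.40, SE 0.29, adjusted p = 0.0497, 0.76 with the sarcomere score in the fit). Cox7c of complex IV had 15646, 9582, 18276 and 11571 against 29662, 24288, 32784 and 36092 (log2 fold change 1.16, SE 0.24, adjusted p = 0.0497, 0.67 with the sarcomere score in the fit). Both rose without overlap, as did Atp5f1e of ATP synthase, with 31342, 18457, 31513 and 21885 against 54838, 49721, 59967 and 59790 (log2 fold change 1.12, SE 0.22, adjusted p = 0.0497). Not all subunits followed: Uqcrb of complex III had 54042, 42957, 112200 and 101550 against 109650, 42102, 72319 and 68425 (log2 fold change -0.09, SE 0.34, adjusted p = 0.902, -0.37 with the sarcomere score in the fit, 0.45 after GC correction), and Ndufb1 of complex I a log2 fold change of -0.24 (SE 0.33, -0.52 with the sarcomere score in the fit). In Uqcrb, AngII 3 and AngII 4 were the highest of the AngII mice and AngII+LY 1 the highest of its group.

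The 13 proteins encoded by mitochondrial DNA itself went with neither group. Of these, 4 were higher and 9 lower, 0 at an unadjusted p under 0.05 and 0 called by edgeR or DESeq2, with a median of -0.26. This median was -0.53 with the sarcomere score in the fit (0 higher and 0 lower) and 0.33 after GC correction (4 higher and 0 lower). mt-Co1, a subunit of cytochrome c oxidase, had 1450400, 1209000, 4364100 and 4185400 normalized counts in AngII and 3135600, 1195000, 1604700 and 1815600 in AngII+LY mice (log2 fold change -0.53, SE 0.57, adjusted p = 0.596, -0.85 with the sarcomere score in the fit, 0.07 after GC correction). AngII 3, AngII 4 and AngII+LY 1 stood apart as high, and Ctrl mice were at 417290 to 825960. As fitted, in the same 8 mice the nuclear subunits of the complexes and the proteins of the mitochondrial genome had medians of opposite sign. After GC correction the medians of complexes I to V and of the mitochondrial genome were all above 0. The difference between them was not tested.

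**Figure D3:**
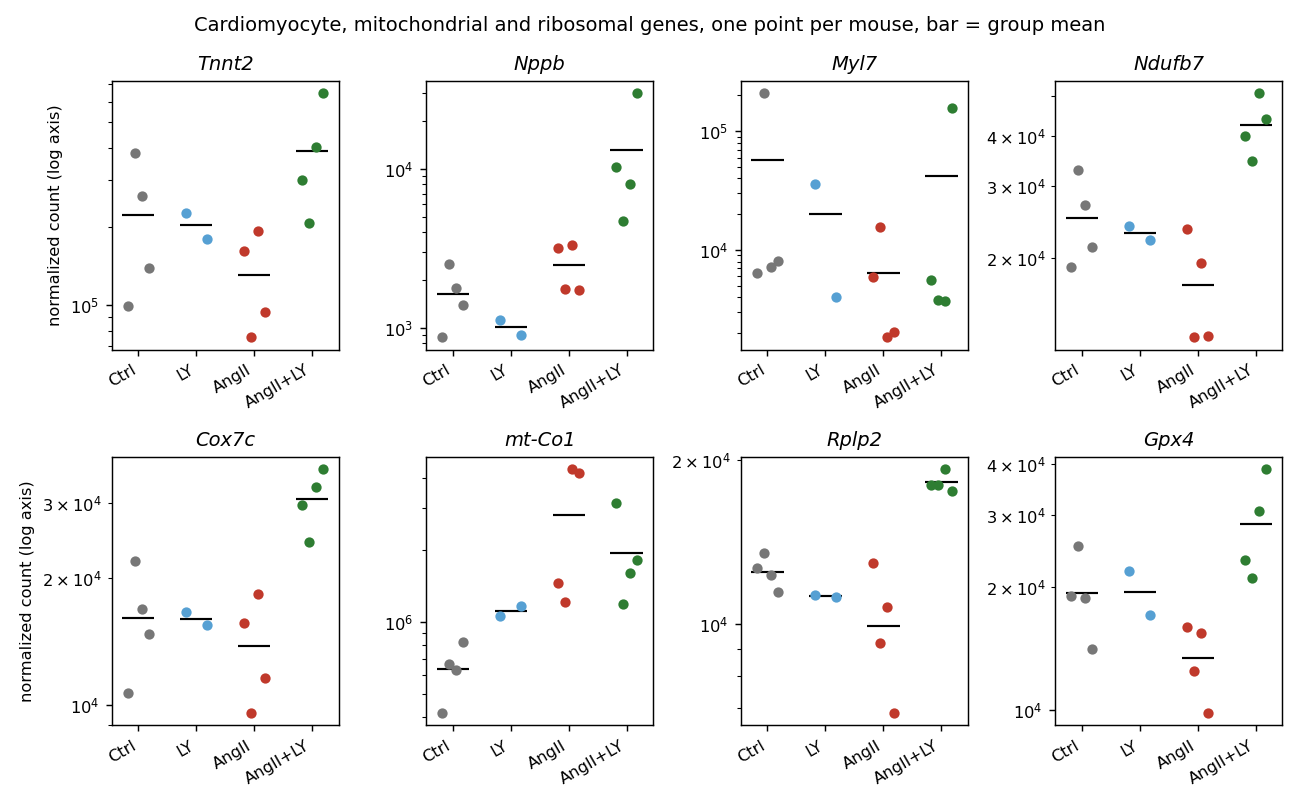
Normalized counts (y axes, log scale) of 8 genes in every mouse of the 4 groups (points) with the group mean (bar). Ndufb7, Cox7c and Rplp2 show no overlap between AngII and AngII+LY, mt-Co1 overlaps, and in Myl7 a single AngII+LY mouse at 155870 sets the mean.

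The translation machinery was higher in both compartments. Of 78 mitochondrial ribosomal genes 71 were higher, with a median log2 fold change of 0.59, 54 higher and 2 lower at an unadjusted p under 0.05, and 8 rose. With the score in the fit their median was 0.28. Mrpl12, a protein of the large subunit, rose with 9244, 5438, 9389.9 and 4904 normalized counts in AngII and 15624, 11498, 21105 and 22161 in AngII+LY mice (log2 fold change 1.28, SE 0.27, adjusted p = 0.0497, 0.78 with the sarcomere score in the fit). Of 83 cytosolic ribosomal genes 73 were higher, with a median of 0.52, 49 higher and 1 lower at an unadjusted p under 0.05, and 3 rose, namely Rplp2, Rpl27 and Rpl24. In 44 of the 83 the groups did not overlap, with AngII+LY above. Rplp2, a stalk protein of the large subunit, had 12891, 9209.9, 10707 and 6853 against 17984, 17942, 19220 and 17541 (log2 fold change 0.87, SE 0.18, adjusted p = 0.0497, 0.52 after GC correction), and the Ctrl range of 11434 to 13460 lay below all AngII+LY mice. None of the 83 followed the sarcomere score over the non-infused libraries, and with the score in the fit their median was 0.54, with 47 higher and 0 lower at an unadjusted p under 0.05. These genes are short, with a median exon length of 2825 bases, and after GC correction their median was 0.35. Ribosomal genes have many near-identical processed copies in the genome, which can share their reads.

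Of 27 genes that make or remove oxidants, 6 were higher at an unadjusted p under 0.05, 0 lower, and 2 rose. The median of these genes, 0.24, was 0.10 with the sarcomere score in the fit (3 higher and 0 lower) and 0.09 after GC correction (7 higher and 1 lower). Prdx5, a peroxidase of mitochondria and peroxisomes, had 13392, 8663, 12435 and 8040.5 normalized counts in AngII and 20674, 17092, 29563 and 28838 in AngII+LY mice (log2 fold change 1.18, SE 0.24, adjusted p = 0.0497, 0.75 with the sarcomere score in the fit, 0.74 after GC correction). Gpx4, which reduces lipid peroxides in membranes, had 15989, 12415, 15452 and 9821 against 23334, 21078, 30616 and 38874 (log2 fold change 1.08, SE 0.24, adjusted p = 0.0497, 0.65 with the sarcomere score in the fit, 0.66 after GC correction). In both genes the groups did not overlap. Msrb1, a selenoprotein that repairs oxidized methionine and was on no list, also rose, with 1488, 1142, 1514 and 1122 against 2491, 2442, 3363 and 3234 (log2 fold change 1.13, SE 0.20, adjusted p = 0.0447).

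Valve interstitial genes were lower with LY272015. Of 20 markers 18 were lower, with a median log2 fold change of -0.61, 10 lower and 0 higher at an unadjusted p under 0.05 against 13.6% lower over all genes. edgeR called 0 of them and DESeq2 called 7, and in 7 the groups did not overlap. With the sarcomere score in the fit the median was -0.37 (0 higher and 2 lower), and after GC correction -0.74 (0 higher and 11 lower). Lum, the proteoglycan lumican that spaces collagen fibrils, had 86154, 105160, 105480 and 104120 normalized counts in AngII and 55110, 29752, 35380 and 25883 in AngII+LY mice, against 34499 to 89746 in Ctrl (log2 fold change -1.46, SE 0.33, adjusted p just above 0.05, -0.92 after GC correction). Every AngII+LY mouse was below every AngII mouse and within or below the Ctrl range. Postn, the matrix protein periostin of activated fibroblasts, had 75864, 77769, 84679 and 68172 against 41131, 22884, 30797 and 12745 (log2 fold change -1.51, SE 0.43, adjusted p = 0.068, -0.76 with the sarcomere score in the fit), without overlap.

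Tbx20, a transcription factor of valve and heart development, had 12930, 15774, 11829 and 9377 normalized counts in AngII and 8807, 4472, 5687 and 4062 in AngII+LY mice (log2 fold change -1.12, SE 0.28, adjusted p = 0.0548), and AngII 4 was the only AngII mouse near the AngII+LY range. Dcn, the small proteoglycan decorin, had 362320, 350610, 324770 and 393800 against 220310, 167540, 217920 and 114780 (log2 fold change -0.99, SE 0.34, adjusted p = 0.107, -0.49 with the sarcomere score in the fit, -0.41 after GC correction). Vim, the intermediate filament of mesenchymal cells, overlapped between the groups, with 203290, 216540, 191820 and 216710 against 144190, 194790, 146890 and 74969 (log2 fold change -0.56, SE 0.30, adjusted p = 0.255, -0.08 with the sarcomere score in the fit).

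**Figure D4:**
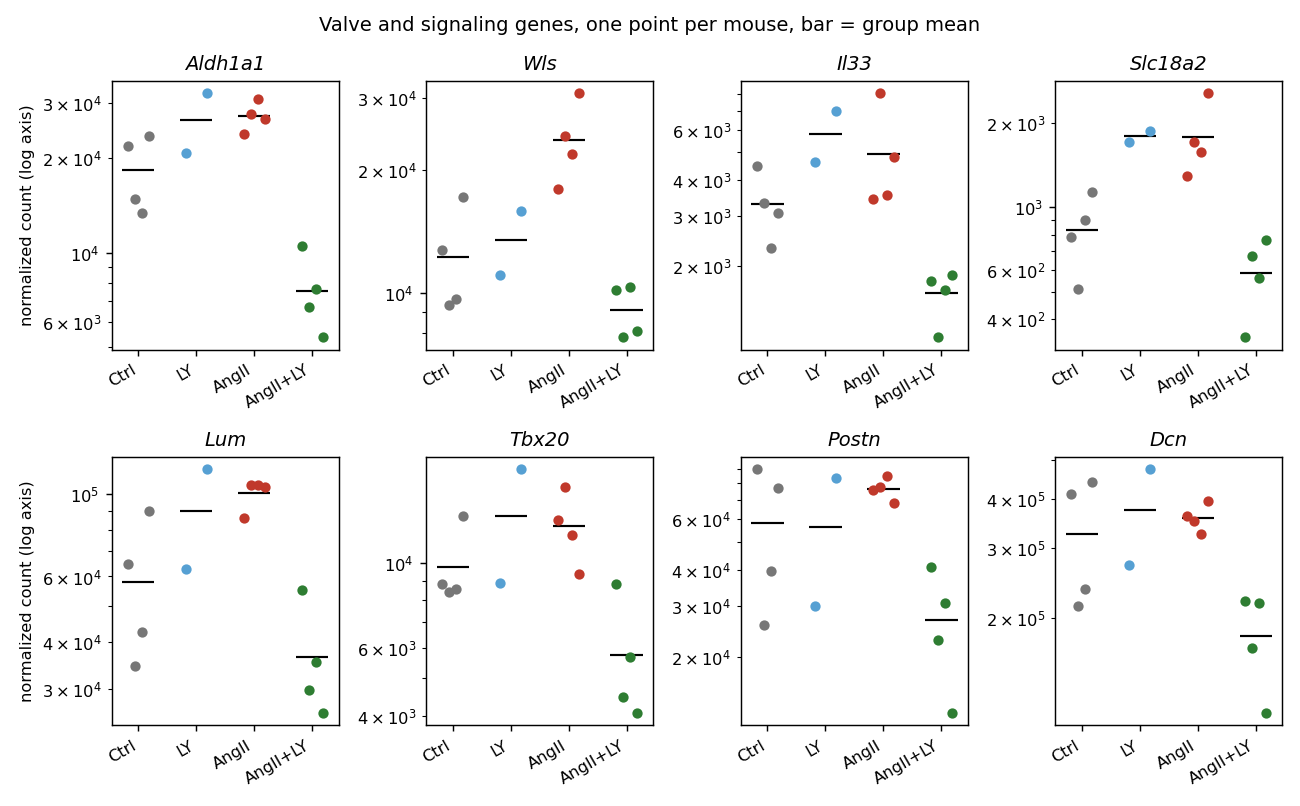
Normalized counts (y axes, log scale) of 8 valve and signaling genes in every mouse of the 4 groups (points) with the group mean (bar). In each of the 8 genes all AngII+LY mice lie below all AngII mice, in Tbx20 by the smallest distance (8807 against 9377).

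Matrix genes shared this direction in part. Of 25 proteoglycan and hyaluronan genes 19 were lower, with a median of -0.84, 12 of them at an unadjusted p under 0.05 and 0 higher, with 0 called by edgeR and 5 by DESeq2. Their median was smaller in both corrections, at -0.33 with the sarcomere score in the fit (0 higher and 4 lower) and -0.47 after GC correction (0 higher and 6 lower). Prg4, the lubricating proteoglycan, had 29860, 28433, 16541 and 10625 normalized counts in AngII and 11612, 5918, 4871 and 4525 in AngII+LY mice (log2 fold change -1.67, SE 0.45, adjusted p = 0.0627, -1.01 with the sarcomere score in the fit), AngII 4 overlapping AngII+LY 1. Fmod, fibromodulin, had 13587, 11228, 5459 and 5354 against 3895, 3635, 5014 and 3805 (log2 fold change -1.13, SE 0.32, adjusted p = 0.0701). Of 24 collagen genes 19 were lower, with a median of -0.58, but 5 were lower and 3 higher at an unadjusted p under 0.05, with 0 called by edgeR and 4 lower and 1 higher by DESeq2. Collagens had a median of -0.31 with the sarcomere score in the fit (3 higher and 2 lower) and -0.79 after GC correction (1 higher and 12 lower). Col1a2, a chain of type I collagen, had 26721, 40290, 25654 and 29220 against 18715, 15621, 16802 and 17844 (log2 fold change -0.82, SE 0.27, adjusted p = 0.0912, -0.47 with the sarcomere score in the fit), without overlap. Its partner chain Col1a1 did overlap, with 20565, 31804, 15648 and 13060 against 11343, 15015, 17986 and 13481 (log2 fold change -0.49, SE 0.31, adjusted p = 0.336, -0.12 with the sarcomere score in the fit, -0.91 after GC correction). Col3a1 of type III collagen had a log2 fold change of -0.55 (SE 0.29, -0.36 with the sarcomere score in the fit).

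Across the valve interstitial and matrix lists together, 99 genes, 71 were lower and 28 higher, with a median of -0.401, and 26 were lower and 6 higher at an unadjusted p under 0.05. Of the 99, 9 opposed and 4 followed the sarcomere score over the non-infused libraries, and the 86 genes in neither class had a median of -0.395. With the score in the fit the median was -0.21, with 8 lower and 3 higher. Their median GC content was 53.3%, with 49.7% for all genes tested and 43.1% for the genes called lower. What GC content contributes to these lists was not tested. Elastic fiber genes were mixed, with 10 of 26 higher and 16 lower and a median of -0.16, which was 0.11 with the sarcomere score in the fit (0 higher and 1 lower) and -0.36 after GC correction (1 higher and 7 lower). Fbn1, the microfibril protein fibrillin, had 5089.6, 9672, 8775 and 11505 normalized counts in AngII and 4737, 4614, 6382 and 4049 in AngII+LY mice (log2 fold change -0.82, SE 0.25, adjusted p = 0.0738), with AngII 1 inside the AngII+LY range.

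Activated-fibroblast genes, 24 in number, were lower in 19, with a median of -0.34, 6 lower and 0 higher at an unadjusted p under 0.05, 0 called by edgeR and 3 by DESeq2. Thbs1, thrombospondin, an activator of latent TGF-beta, had 34838, 29016, 20251 and 33217 normalized counts in AngII and 14012, 9518, 15267 and 8344 in AngII+LY mice (log2 fold change -1.32, SE 0.36, adjusted p = 0.0653, -0.79 with the sarcomere score in the fit). The median of the list was -0.07 with the sarcomere score in the fit (1 higher and 0 lower) and -0.48 after GC correction (0 higher and 5 lower).

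Among signaling lists, WNT genes were lower in 23 of 31, with a median of -0.52, 12 lower and 0 higher at an unadjusted p under 0.05, 0 called by edgeR and 8 by DESeq2. The WNT median was -0.15 with the sarcomere score in the fit (0 higher and 3 lower) and -0.61 after GC correction (0 higher and 12 lower). Sfrp1, a secreted WNT antagonist, had 3498, 3696, 2181 and 1879 normalized counts in AngII and 998, 1012, 756 and 1830.4 in AngII+LY mice (log2 fold change -1.29, SE 0.36, adjusted p = 0.0677). Dkk3, of the Dickkopf family of secreted proteins, had 51878, 51526, 26514 and 24734 against 20847, 16882, 19024 and 20030 (log2 fold change -1.01, SE 0.35, adjusted p = 0.102). In both, all AngII+LY mice were lower, and both act outside the cell against or beside WNT ligands rather than as ligands. Wls, on no list, which carries WNT ligands to the cell surface for release, fell, with 17977, 24157, 21897 and 30802 against 10203, 7802, 10372 and 8068 (log2 fold change -1.38, SE 0.23, adjusted p = 0.0447, -0.89 after GC correction). Its Ctrl range was 9369 to 17159.

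TGF-beta genes numbered 26, of which 18 were lower, 7 lower and 2 higher at an unadjusted p under 0.05, 0 called by edgeR and 2 by DESeq2, with a median of -0.25. This median was -0.03 with the sarcomere score in the fit (1 higher and 0 lower) and -0.37 after GC correction (0 higher and 9 lower). Tgfbr1, the type I receptor, had 3477, 3492, 6688 and 7243 normalized counts in AngII and 3972, 1924, 2309 and 2358 in AngII+LY mice (log2 fold change -0.98, SE 0.32, adjusted p = 0.0904, -0.44 after GC correction), AngII 1 and 2 lying inside the AngII+LY range. BMP genes numbered 24, of which 15 were lower, 6 lower and 1 higher at an unadjusted p under 0.05, 0 called by edgeR and 2 by DESeq2. The BMP median of -0.43 was -0.18 with the sarcomere score in the fit (1 higher and 2 lower) and -0.21 after GC correction (0 higher and 4 lower). Chrdl1, a secreted BMP antagonist, had 569, 2178, 869 and 1502 against 549, 224, 464 and 394 (log2 fold change -1.66, SE 0.42, adjusted p = 0.0578). Of 21 Notch genes 12 were higher and 9 lower (median 0.08, 0.41 with the score, -0.15 after GC correction), and 1, the ligand Jag2, rose, with 1021, 823, 964 and 1238 against 1646, 3426, 2016 and 2560.2 (log2 fold change 1.27, SE 0.26, adjusted p = 0.0497, 0.72 after GC correction) and no overlap.

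Mineralization genes, 18 tested, had 10 higher and 8 lower, with 2 higher and 3 lower at an unadjusted p under 0.05, 0 called by edgeR, and 1 higher and 2 lower by DESeq2. The median, 0.09, was -0.18 with the sarcomere score in the fit (0 higher and 0 lower) and -0.12 after GC correction (1 higher and 3 lower). Tnfrsf11b, the decoy receptor osteoprotegerin, had 667, 1213, 749.8 and 1797 normalized counts in AngII and 364, 225, 561 and 258 in AngII+LY mice (log2 fold change -1.64, SE 0.45, adjusted p = 0.0661, -1.01 with the sarcomere score in the fit). Enpp1, which makes the mineral inhibitor pyrophosphate, had 1522, 2515, 1697 and 2991 against 1265, 618, 824 and 416 (log2 fold change -1.48, SE 0.42, adjusted p = 0.068, -0.81 with the sarcomere score in the fit). Runx2, the osteoblast transcription factor, was scarce, with 67.2, 72.9, 90.1 and 139 against 24.7, 15.4, 36 and 56.5 (log2 fold change -1.30, SE 0.48, adjusted p = 0.124). The groups did not overlap in these 3 genes, of which Runx2 promotes bone formation and Enpp1 and Tnfrsf11b restrain mineral or bone turnover. These are the 3 genes lower at an unadjusted p under 0.05, and the 2 higher ones are not described. The list was split, with log2 fold changes from -1.64 to 4.89 and 1 gene without overlap in which AngII+LY was higher.

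Serotonin genes are the ones closest to the drug. Of 24 genes on the list 14 passed the count filter, and of these 7 were higher and 7 lower, 2 higher and 4 lower at an unadjusted p under 0.05, and 1 fell. Their median was 0.02, -0.40 with the sarcomere score in the fit (1 higher and 2 lower) and -0.03 after GC correction (2 higher and 3 lower). Log2 fold changes ran from -1.58 to 7.13, the highest in a gene not described below. None of the 14 followed or opposed the sarcomere score. DESeq2 called 1 of them higher and 4 lower (5.34% and 5.54% of all genes). In 3 the groups did not overlap, with AngII+LY below (5.66% of all genes). Slc18a2 (ENSMUSG00000025094, chr19:59249238-59284695, GRCm39), the vesicular monoamine transporter, fell from 1296, 1702, 1573 and 2548 normalized counts in AngII to 345, 669, 561 and 765 in AngII+LY mice, with 512 to 1133 in Ctrl (log2 fold change -1.58, SE 0.30, adjusted p = 0.0452). Its AngII and AngII+LY groups did not overlap, and the 2 LY mice were at 1705 and 1870, within the AngII range. The degrading enzyme Maoa had 2116, 2379, 1328 and 2075 against 552, 1093, 1054 and 1148 (log2 fold change -1.04, SE 0.27, adjusted p = 0.0578, -0.51 after GC correction), also without overlap, while Maob had a log2 fold change of -0.43 (SE 0.29, -0.16 after GC correction).

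Htr2b (ENSMUSG00000026228, chr1:86026748-86039736, GRCm39), the receptor that LY272015 blocks, was near the limit of detection, with 88.9, 3.41, 28.8 and 0 normalized counts in AngII and 16.5, 28.4, 86.4 and 97.7 in AngII+LY mice (log2 fold change 0.83, SE 0.92, adjusted p = 0.611, -0.54 with the sarcomere score in the fit). The groups overlapped, with AngII 2 and AngII 4 below every AngII+LY mouse, and a difference was not detectable at this level. Htr2a, the related receptor, had 729.9, 965, 252 and 175 against 362, 421, 66.2 and 148 (log2 fold change -1.16, SE 0.59, adjusted p = 0.232, -0.27 with the sarcomere score in the fit), with overlap. The serotonin transporter Slc6a4 had 363, 218, 169 and 2918 against 461, 98.2, 615 and 516 (log2 fold change -0.97, SE 0.83, adjusted p = 0.497, -0.56 with the sarcomere score in the fit). AngII 4 alone was high, and without it the log2 fold change was 0.75.

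Downstream of the receptor, Gnaq, the alpha subunit of Gq, had 4899, 5061, 4418 and 7875 normalized counts in AngII and 4219, 4374, 2825 and 2528 in AngII+LY mice (log2 fold change -0.67, SE 0.22, adjusted p = 0.0927, -0.39 with the sarcomere score in the fit), and its relative Gna11 9152, 6146, 5414 and 3537 against 6775, 9732, 8962 and 7959 (log2 fold change 0.46, SE 0.23, adjusted p = 0.23, 0.10 after GC correction). Gnaq lay lower in every AngII+LY mouse, while Gna11 overlapped. Plcb1, the phospholipase they activate, had 729, 1368, 1328 and 2217 against 785, 702, 754 and 507 (log2 fold change -1.02, SE 0.35, adjusted p = 0.102, -0.57 with the sarcomere score in the fit), with AngII 1 inside the AngII+LY range. Ddc had 18.6, 49.7, 157 and 122 against 306, 93.5, 43.2 and 1523 (log2 fold change 2.69, SE 0.90, adjusted p = 0.0967, 0.71 with the sarcomere score in the fit), AngII+LY 4 being highest.

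Atp6ap2, a receptor of renin and subunit-associated protein of the vacuolar proton pump, was the only called gene of 13 in the renin-angiotensin list. It fell, with 8986, 10018, 8797 and 9602 normalized counts in AngII and 5252, 5040.4, 4202 and 2834 in AngII+LY mice (log2 fold change -1.11, SE 0.25, adjusted p = 0.0497, -0.64 with the sarcomere score in the fit, -0.62 after GC correction). No mouse overlapped.

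The genes with the smallest p were led by 1 enzyme of retinoic acid synthesis. Aldh1a1 (ENSMUSG00000053279, chr19:20469539-20622825, GRCm39) fell from 23778, 27528, 30929 and 26656 normalized counts in AngII to 10524, 6696, 7645 and 5368 in AngII+LY mice, with 13399 to 23454 in Ctrl and 20703 to 32174 in the 2 LY mice (log2 fold change -1.85, SE 0.25, adjusted p = 0.0267). Its log2 fold change was -1.56 with the sarcomere score in the fit and -1.45 after GC correction. All 4 AngII+LY mice were below every other mouse of the series. The retinol-binding protein Rbp7 rose, with 969.7, 690.0, 1054 and 917 against 3268, 2185, 2043 and 2525 (log2 fold change 1.47, SE 0.25, adjusted p = 0.0447), and every AngII+LY mouse was above the Ctrl range of 620.4 to 1250.4.

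Gucy1a2, a subunit of the nitric oxide receptor guanylate cyclase, fell from 112, 174, 175 and 119 to 11, 11.8, 23 and 13.4 normalized counts (log2 fold change -3.35, SE 0.49, adjusted p = 0.0267). Its counts are low, and DESeq2 gave it no adjusted p and so did not call it. The GC content of Gucy1a2, 36.1%, lies in the lowest of the 5 GC groups. Prokr2, a prokineticin receptor, fell from 244, 274, 502 and 489.7 to 34.3, 43.8, 36 and 31.6 (log2 fold change -3.33, SE 0.56, adjusted p = 0.0447), with Ctrl mice between. Il33, an alarm cytokine of stromal and endothelial cells, fell from 3425, 8045, 3538 and 4804 to 1777, 1129, 1659 and 1869.6 (log2 fold change -1.62, SE 0.29, adjusted p = 0.0447) and was the 1 gene of 29 chemokines and cytokines to be called. The lowest AngII mouse was at 3425 and the highest AngII+LY mouse at 1869.6. Atp7a, the copper transporter that supplies lysyl oxidases, fell from 1249, 1501, 1404 and 1817 to 717, 291, 477 and 396 (log2 fold change -1.67, SE 0.29, adjusted p = 0.0447), and the zinc transporter Slc30a4 from 2826, 3237, 3813 and 6972 to 1126, 1438, 1536 and 1012 (log2 fold change -1.71, SE 0.30, adjusted p = 0.0447). Car7, a carbonic anhydrase, rose from 223, 198, 108 and 146 to 428, 387, 841 and 656 (log2 fold change 1.74, SE 0.34, adjusted p = 0.0497).

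Markers of other cell types the leaflet could hold moved less evenly. All 14 smooth muscle genes were higher, with a median of 1.55, 4 at an unadjusted p under 0.05, 0 called by edgeR and 2 by DESeq2. Acta2, smooth muscle actin, had 7076, 8654, 11961 and 6373 normalized counts in AngII and 7060.2, 52820, 7587 and 47768 in AngII+LY mice (log2 fold change 1.76, SE 0.99, adjusted p = 0.285), so that AngII+LY 2 and AngII+LY 4 were high and the other 2 were not. Myocd, a coactivator of muscle genes, had 121, 85.1, 249 and 116 against 393, 559, 485 and 1176 (log2 fold change 2.21, SE 0.70, adjusted p = 0.0863), without overlap. Of the 14 smooth muscle genes 2 followed the sarcomere score over the non-infused libraries. The list took 0.0973, 0.0943, 0.125 and 0.0869% of counts in AngII and 0.128, 0.331, 0.159 and 0.504% in AngII+LY mice. Ctrl mice ranged over 0.0851 to 1.35%, and over 5386 to 284730 normalized counts in Acta2. With the sarcomere score in the fit the list median was 1.74 (1 higher and 0 lower), and after GC correction 1.185 (3 higher and 0 lower). Endothelial and endocardial genes were even, 14 higher and 14 lower, with 1 higher and 3 lower at an unadjusted p under 0.05, 0 called by edgeR and 1 each way by DESeq2. Vcam1, a leukocyte adhesion molecule, was 1 of the 3 lower genes and was called by neither tool. It had 57746, 60465, 48468 and 103970 against 32659, 46445, 49270 and 10686 (log2 fold change -0.96, SE 0.38, adjusted p = 0.141, -0.48 with the sarcomere score in the fit, -0.51 after GC correction), AngII+LY 4 lying lowest. The 14 higher genes of this list are not described, so Vcam1 does not stand for the list.

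Macrophage genes were higher in 14 of 20, 3 at an unadjusted p under 0.05, with 0 called by edgeR and 1 by DESeq2. Their median of 0.31 was 0.54 with the sarcomere score in the fit (2 higher and 0 lower) and 0.30 after GC correction (1 higher and 0 lower). C1qa, a complement component made by macrophages, had 2261, 2625, 2042 and 1115 normalized counts in AngII and 2606, 4422, 4382 and 3324 in AngII+LY mice (log2 fold change 0.86, SE 0.38, adjusted p = 0.179, 0.46 after GC correction), against 2912 to 12973 in Ctrl. Of 10 epicardial and mesothelial genes 9 were lower, 2 of them, the mucin Muc16 and the membrane protein Lrrn4, at an unadjusted p under 0.05, with 0 called by edgeR and 2 by DESeq2. The median of the 10, -0.41, was -1.01 with the sarcomere score in the fit (0 higher and 4 lower) and -0.61 after GC correction (0 higher and 3 lower). Lrrn4, without overlap, had 1996, 4429, 1425 and 3534 against 905, 666, 923 and 1075 (log2 fold change -1.67, SE 0.48, adjusted p = 0.0696). Melanocyte genes were lower in 10 of 12, 1 of them at an unadjusted p under 0.05 and 0 called by either tool, their median of -1.28 became 0.25 with the score in the fit, and AngII 2 was the mouse with the most of them among AngII mice. The part of these cells in the other results was not tested.

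**Figure D5:**
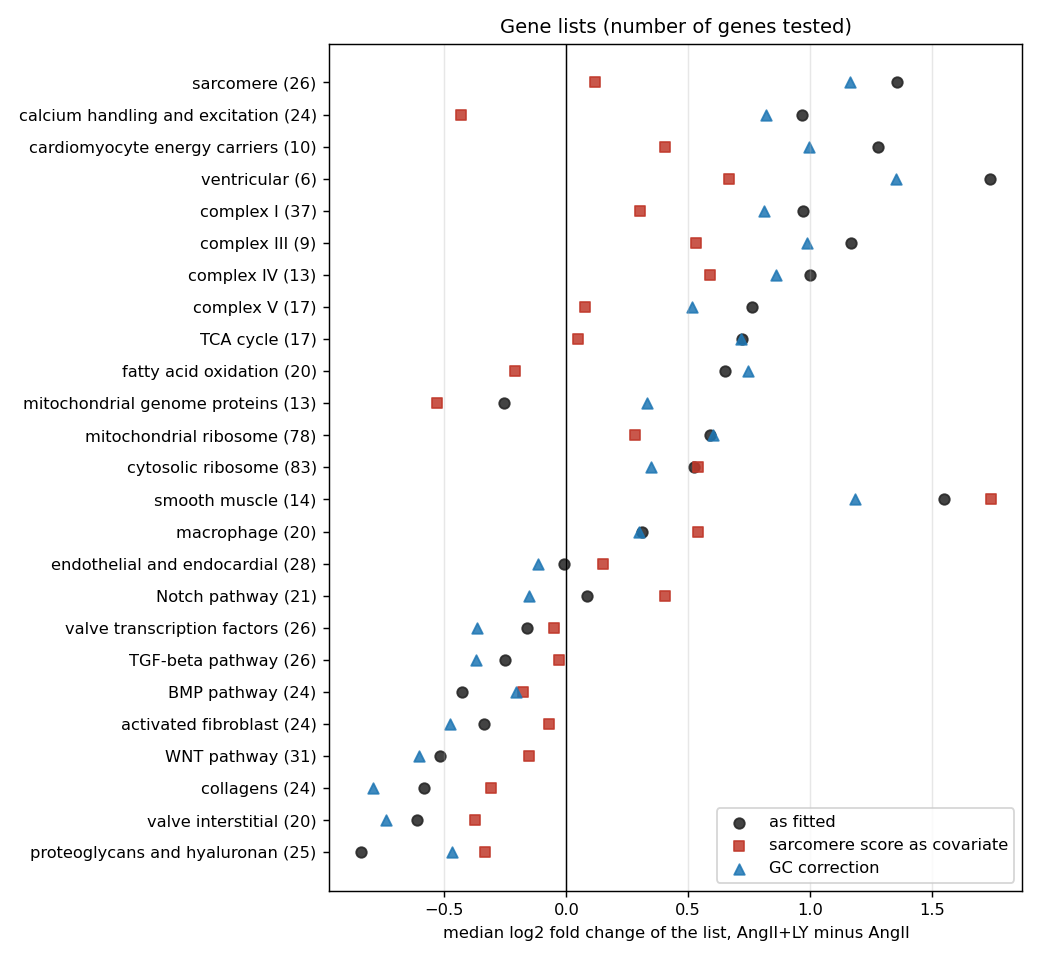
Median log2 fold change of AngII+LY against AngII (x axis) for 25 gene lists (rows, with the number of genes tested), as fitted, with the sarcomere score as covariate and with GC correction. Cytosolic ribosomal genes keep a median of 0.54 with the covariate while the sarcomere list moves from 1.36 to 0.12, and the valve interstitial and proteoglycan lists lie below 0 in all 3.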

How the data were processed

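Aortic valve leaflets of 14 mice were profiled by bulk RNA sequencing. The authors trimmed reads after FastQC, used HISAT2 with GRCm39 for alignment and featureCounts for counting. Strand setting, library kit and annotation version are not given in the sources used here. The deposited table is called normalized, but its values are whole-number raw counts per gene and were treated as such. Normalized counts in the text are counts divided by edgeR's TMM-scaled library size and brought to one common depth.

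Genes averaging 10 counts or more were fitted with edgeR 4.0.16 (R 4.3.3) over all 4 groups without covariates, by the quasi-likelihood test (glmQLFit, glmQLFTest) with the newer quasi-dispersion estimate (legacy=FALSE), and AngII+LY was contrasted with AngII. Adjusted p is by Benjamini-Hochberg over all genes tested. A gene was called at adjusted p under 0.05 and absolute log2 fold change above 0.5. The members and the 56 gene lists, and also the choice of the newer estimate in place of the installed default, were made with earlier results of these data known, including counts of calls under several settings. All calls lie at the edge of the threshold. An exact permutation test of 4 against 4 cannot go below 0.029. The labels do not say that replicates came from separate animals, so p-values measure the spread between these libraries.

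Alternatives were other size factors, scaling without mitochondrial and cardiomyocyte genes, other count minimums, DESeq2 1.42.0, a fit of the 2 groups alone, the older estimate, the sarcomere score as covariate, GC correction (loess, span 0.3), the replicate block and each library left out. A correction for transcript length was chosen after seeing the data. Named genes were, per list, up to 3 with the highest counts and 4 with the smallest p, with up to 15 per direction over all genes, from which those described were taken. Gene positions are GENCODE vM39 on GRCm39. The scripts were tested on simulated data. A few genes and 1 list are not reported here.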

Additional observations from a re-analysis of the deposited data

Results flagged for a closer look

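Within the 2 groups of 4, the highest or lowest library was far from the other 3 by Dixon's test in 12 of 220 values examined (103 genes and the 7 library measures, each in both groups). These values are not independent, as the atrial share includes Myl7 and Nppa, and many of the genes were picked by p. The count therefore cannot be set against a share given by chance. AngII+LY 4 was high in the atrial genes Myl7 (155870 normalized counts) and Nppa (141580) and in the summed atrial share (0.8537% of counts), and low in the nuclear RNA Tug1 (2417.5). AngII+LY 1 was high in the chaperone Canx (24940), the membrane protease Adam10 (10839) and the nuclear RNA Malat1 (27318), and low in Maoa (551.96). AngII 4 was high in the serotonin transporter Slc6a4 (2918.4) and the neutrophil chemokine Cxcl5 (847.06). AngII 1 was low in Lum (86154), and AngII 2 was high in Notum (190.71), a WNT inhibitor. What sets these libraries apart was not tested.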

How the results depend on the processing

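The number of calls depended on the processing more than any other value. Against 79 higher and 97 lower, edgeR with DESeq2 size factors called 167 and 128, scaling without mitochondrial and cardiomyocyte genes 7 and 32, no filter on low counts 0 and 5, and DESeq2 1022 and 1060, while a minimum mean count of 100 gave 335 and 351. The 2 groups alone, the older quasi-dispersion estimate, the sarcomere score as covariate, GC correction, transcript length correction (chosen after seeing the data), the replicate block, and the block with GC correction each called 0 and 0. Leaving out 1 library at a time gave 0 to 458 higher and 0 to 603 lower. At an unadjusted p under 0.05, from 2153 higher and 2600 lower, the covariate gave 1201 and 1399, GC correction 1683 and 1691, the replicate block 1558 and 1531, and the block with GC correction 1473 and 1032. Leaving out 1 library gave 1579 to 2308 and 2005 to 2922, and the remaining settings stayed within 1.5 times of both counts. Same-numbered libraries correlated at -0.065, 0.09, 0.034 and -0.056 in their deviations from the group means, so the numbers are only names.

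No called gene of the 34 named changed direction in any alternative. They were picked by p in these same libraries, so this is no independent support. With the older estimate, the sarcomere score as covariate or GC correction, 0 of the 34 stayed called. Direction did turn for other named genes. With the covariate, log2 fold changes were -0.079 for Actc1, -0.65 for Atp2a2, -2.33 for Myl7, -0.91 for Nppa and -0.54 for Htr2b. With GC correction they were 0.45 for Uqcrb, 0.069 for mt-Co1 and 0.18 for mt-Cytb, and with the replicate block added 0.52, 0.23 and 0.34. Leaving out 1 library at a time, Myl7 ranged from -0.54 (without AngII+LY 4) to 3.68, Slc6a4 from -1.36 to 0.75 (without AngII 4), Ndufb1 from -0.448 to 0.019 (without AngII 3) and Uqcrb from -0.35 to 0.145 (without AngII 3, and also above 0 without AngII 4 at 0.069 or AngII+LY 2 at 0.132). The cause of these changes was not tested.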

Other observations

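Genes of hypoxia and glycolysis were higher in 24 of 26, with a median log2 fold change of 0.67, 16 higher and 0 lower at an unadjusted p under 0.05, 0 called by edgeR and 13 by DESeq2, and a median of 0.29 with the sarcomere score in the fit. Pgam2, the muscle form of phosphoglycerate mutase, had 21934, 12503, 21243 and 12514 normalized counts in AngII and 41717, 30250, 59671 and 75408 in AngII+LY mice (log2 fold change 1.60, SE 0.38, adjusted p just above 0.05, 0.66 with the sarcomere score in the fit). Aldoa, the aldolase of muscle and many other tissues, had 76842, 48942, 70270 and 35372 against 100660, 79202, 156140 and 204240 (log2 fold change 1.22, SE 0.35, adjusted p = 0.0696, 0.49 with the sarcomere score in the fit). In both the groups did not overlap, and both genes followed the sarcomere score over the non-infused libraries. Among 16 adipocyte genes 5 were higher and 0 lower at an unadjusted p under 0.05, with 0 called by edgeR and 3 by DESeq2, and their median of 0.27 was 0.02 with the sarcomere score in the fit. Fabp4, a fatty acid carrier that adipocytes, capillary endothelium and macrophages share, had 28702, 18355, 43315 and 30799 against 63859, 44011, 54868 and 45484 (log2 fold change 0.78, SE 0.23, adjusted p = 0.0749, 1.25 after GC correction), without overlap.

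Genes of heat shock and the unfolded protein response were mixed, 10 higher and 12 lower, with 6 lower and 2 higher at an unadjusted p under 0.05. Their median of -0.13 was -0.02 with the sarcomere score in the fit (1 higher and 3 lower) and -0.18 after GC correction (1 higher and 3 lower). Pdia3, a disulfide isomerase of the endoplasmic reticulum, fell from 50621, 52225, 47692 and 68434 to 29689, 27849, 20975 and 15994 normalized counts (log2 fold change -1.21, SE 0.25, adjusted p = 0.0497). Of 10 abundant nuclear noncoding RNAs 8 were lower, 4 at an unadjusted p under 0.05. Tug1, a long noncoding RNA, fell from 6545, 8201, 6327 and 12223 to 3891, 3680.2, 3930.4 and 2418 (log2 fold change -1.26, SE 0.26, adjusted p = 0.0497, -0.67 after GC correction), while Malat1 overlapped, with 22266, 33559, 70119 and 76984 against 27318, 17216, 16023 and 17370 (log2 fold change -1.38, SE 0.36, adjusted p = 0.0611, -0.80 after GC correction). In Malat1, AngII 3 and AngII 4 were high, the same 2 mice with the lowest GC difference. Their summed share was 0.138, 0.195, 0.227 and 0.227% of counts in AngII and 0.143, 0.154, 0.111 and 0.113% in AngII+LY mice, and the part of this in the other results was not tested.

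Etnppl, a scarce gene with a small p and a phospholyase of phosphoethanolamine, fell from 229.5, 944, 175 and 52.9 normalized counts in AngII to 8.24, 0, 8.64 and 0 in AngII+LY mice, with 106 to 248 in Ctrl (log2 fold change -6.68, SE 1.10, adjusted p = 0.0419). Its fold change depends on counts near 0. Interferon-stimulated genes, 22 in number, had 11 higher and 11 lower, 0 at an unadjusted p under 0.05 and 0 called by either tool.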
